A study of Mus musculus with 20 samples.

Results

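The effect of alkali therapy on gene expression was followed in oxalate mice, by comparing 5 libraries from mice given alkali with 5 libraries from untreated oxalate mice, 10 of the 20 libraries of the series. The members are all genes with enough counts, 15430 of 25700 gene identifiers. The study concerns bicarbonate given as alkali in mice with crystal nephropathy, a kidney disease in which crystals lodge in the tubules. Stranded poly(A) libraries were made for 4 groups of 5: control mice left untreated, control mice on alkali therapy, oxalate mice left untreated, and oxalate mice that received alkali therapy. The sample labels give no strain, sex, age, tissue, dose or time, and the word "late" in the names of both alkali groups is not explained there. They do not tie the libraries to individual animals, so the p-values rest on differences among libraries that could be technical.

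Oxalate binds calcium, and calcium oxalate crystals that form in the tubule injure its epithelium and draw in macrophages. The proximal tubule takes up glutamine and breaks it down to ammonia and bicarbonate, and acidosis raises the genes of this pathway, while bicarbonate supply relieves the acid load. Intercalated cells of the collecting duct secrete acid or bicarbonate, and the distal convoluted tubule recovers sodium, calcium and magnesium.

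Kidney genes were abundant in all 10 oxalate libraries, although the labels name no tissue. Umod, the uromodulin of the thick ascending limb, lay at 2287 to 2915 CPM (the count relative to a library total scaled by the trimmed mean of M-values, TMM) in untreated and 2158 to 3039.5 CPM in alkali-treated libraries. Kap, an abundant androgen-driven gene of the proximal tubule, lay at 11290.0 to 29274 and 11431 to 27398 CPM. Total counts of the 10 libraries ran from 25547840 to 39550689. The libraries of the oxalate groups varied more than those of the control groups: the common biological coefficient of variation was 0.228 in untreated and 0.251 in alkali-treated oxalate libraries, against 0.173 in untreated and 0.113 in alkali-treated controls. Alkali library 33 and untreated library 32 held Adipoq, an adipocyte gene, at 35.4 and 3.12 CPM, and the other 8 oxalate libraries held at most 0.200 CPM. On the leading principal component of the 10 libraries, which held 44.2% of the variance, untreated libraries lay between -23.9 and 59.5 and alkali libraries between -67.0 and 23.6, so the groups overlapped. On the next component (16.0% of the variance) 4 untreated libraries, at 6.34 to 28.8, lay above all alkali libraries, at -49.2 to -0.26, and untreated library 40, at -4.18, lay among them.

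In the fit of all 20 libraries, 271 genes (1.76% of those tested) were higher and 359 (2.33%) lower with alkali in oxalate mice at an adjusted p under 0.05 (edgeR quasi-likelihood test, Benjamini-Hochberg), together 4.08%. Of these, 47 (0.305%) were at least 2-fold higher and 151 (0.979%) at least 2-fold lower, and 150 and 119 changed by under 1.5-fold. The median change of all genes was 0.01 on the log2 scale, with 7897 changes above 0 and 7533 below 0. These counts over all genes are the background for the gene lists below. The count depended on how the unequal spread of the groups was treated. With the control libraries left out, the 10 oxalate libraries gave 15 genes higher (0.0979% of 15314) and 14 lower (0.0914%), together 0.189%, of which 27 were also called in the 20-library fit. A limma-voom fit of all 20 libraries that gave each group its own weight called 12 higher (0.0778%) and 30 lower (0.194%), together 0.272%, and all 42 were also called in the 20-library fit. All 3 fits called 12 genes (0.0778%), 5 higher (0.0324%) and 7 lower (0.0454%). In 177 of the 271 higher genes and 148 of the 359 lower genes all 5 libraries of one group lay above all 5 of the other, as in 3.52% of all genes tested (1.91% with alkali higher and 1.61% with alkali lower). Whichever oxalate library was left out, 78 of the higher and 72 of the lower genes were still called. Of the 271 higher and 359 lower genes, 60 and 58 had exons overlapping another counted gene, against 22.5% of all genes tested.

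**Figure D1:**
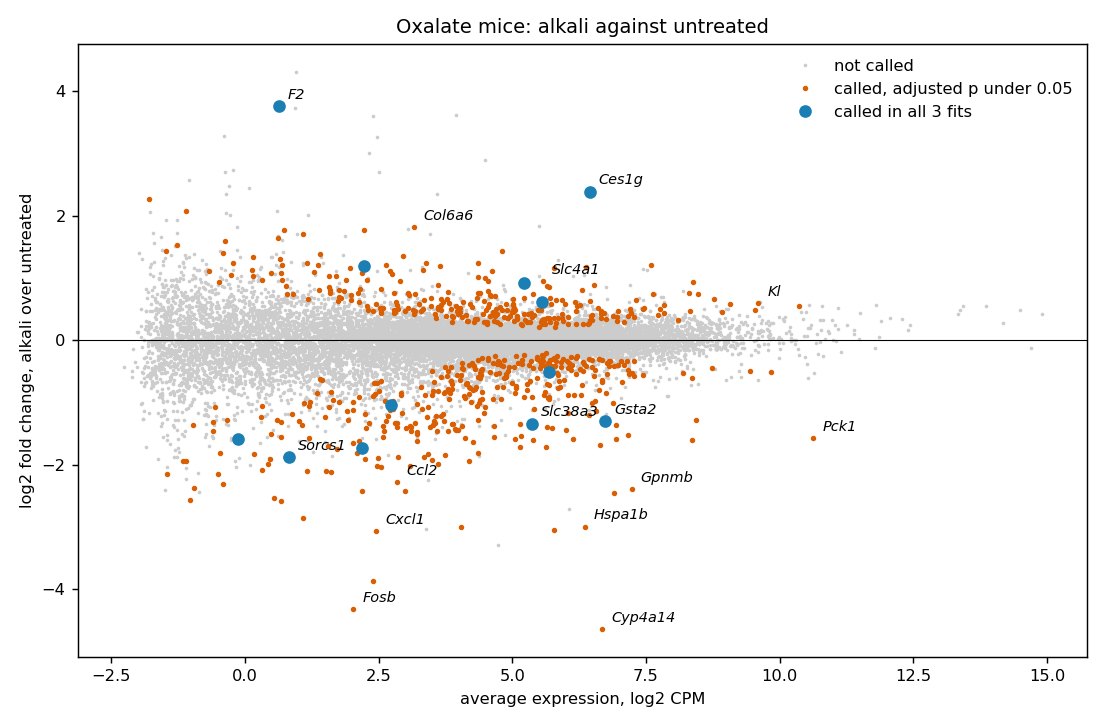
Log2 fold change of alkali-treated over untreated oxalate libraries (vertical axis) against average expression in log2 CPM (horizontal axis) for the 15430 genes tested. Orange points are the 630 genes called at an adjusted p under 0.05, blue points the 12 genes called in all 3 fits, and grey points the rest. Lower genes reach changes of -4.64, while F2, at 3.77, has the largest change of the higher called genes.

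The 5 genes that were higher in all 3 fits were F2, Ces1g, Ttc22, Ppp1r1b and Shank2. Below, CPM values of single libraries are listed in the order 12, 3, 32, 39 and 40 for untreated oxalate mice and 2, 30, 33, 5 and 8 for oxalate mice on alkali. Each change is a log2 fold change with its SE (n = 5 in each group), and adjusted p-values are those of edgeR's quasi-likelihood test on all 20 libraries unless another fit is named. F2, which encodes prothrombin (chromosome 2 from 91625320 to 91636414 in GENCODE M21, GRCm38, as are the other gene positions), measured 0.25, 0.333, 0.116, 0.0992 and 0.114 CPM in untreated and 1.96, 1.79, 2.98, 2.15 and 3.62 CPM in alkali libraries. Every alkali library lay above every untreated one, and the raw counts were 3 to 10 against 57 to 139. F2 rose by 3.77 ± 0.32 (adjusted p = 2.11e-06). Control mice held F2 at 0.719 to 1.22 CPM without and 1.53 to 2.71 CPM with alkali, so untreated oxalate libraries were the lowest of the 4 groups. Ces1g, a carboxylesterase that cleaves lipid esters (chromosome 8 from 93302369 to 93337308), measured 25.6, 36, 50.9, 14.8 and 21 CPM in untreated and 123, 144, 140.4, 217 and 154 CPM in alkali libraries. The groups did not overlap, and Ces1g rose by 2.39 ± 0.31 (adjusted p = 0.000766), to 5.25 times the untreated level. In control mice its change was 0.81 ± 0.29, which was not called.

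Ppp1r1b encodes DARPP-32, an inhibitor of protein phosphatase 1 that is regulated through cyclic AMP. It measured 19, 25, 20.6, 24.8 and 22.5 CPM in untreated and 44.9, 43.1, 40.4, 35.8 and 47.5 CPM in alkali libraries and rose by 0.92 ± 0.12 (adjusted p = 0.000642). The alkali values lay in the range of the control mice, which held 31.3 to 51.9 CPM. Shank2, a scaffold protein known to bind the sodium/hydrogen exchanger of the proximal tubule, measured 33.9, 37.4, 30.5, 29.5 and 30.1 CPM in untreated and 60.4, 45.3, 46, 47.4 and 48 CPM in alkali libraries and rose by 0.61 ± 0.10 (adjusted p = 0.00313). Alkali library 2 was the highest, and the other 4 alkali libraries lay within 45.3 to 48.0 CPM. Ttc22, which encodes a tetratricopeptide repeat protein, measured 3.12, 2.4, 3.12, 2.91 and 3.41 CPM in untreated and 6.72, 6.56, 6.45, 6.3 and 8.29 CPM in alkali libraries and rose by 1.20 ± 0.16 (adjusted p = 0.000842). For each of these 5 genes the lowest alkali library stood above the highest untreated library.

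The 7 genes that were lower in all 3 fits were Gsta2, Slc38a3, Ubd, Sorcs1, Lpo, Amz1 and Eif1a. Gsta2, a glutathione transferase (chromosome 9 from 78331018 to 78355788), measured 155, 194, 142, 239 and 145 CPM in untreated and 67.5, 81.2, 65.7, 67.2 and 73.8 CPM in alkali libraries. The alkali libraries lay close together and all below the untreated ones, and Gsta2 fell by 2.46-fold, a change of -1.30 ± 0.13 (adjusted p = 2.34e-05). Slc38a3 encodes SNAT3, the basolateral carrier that brings glutamine into proximal tubule cells for ammonia production (chromosome 9 from 107650634 to 107669530). It measured 87.4, 61.3, 43.7, 71.9 and 45.8 CPM in untreated and 34, 25.2, 26.3, 18 and 19.1 CPM in alkali libraries and changed by -1.34 ± 0.21 (adjusted p = 0.0031), with no overlap. Control mice held 36.6 to 60.3 CPM without alkali, and untreated oxalate mice did not differ from them at the threshold (change 0.44 ± 0.20, adjusted p = 0.0773).

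Ubd encodes a ubiquitin-like modifier induced by tumour necrosis factor and interferon gamma, and measured 17, 9.12, 10.6, 7.84 and 13.3 CPM in untreated and 2.48, 3.41, 4.78, 3.67 and 3.1 CPM in alkali libraries. It changed by -1.73 ± 0.29 (adjusted p = 0.00424). Sorcs1, a sorting receptor of the Vps10 family, measured 5.87, 3.3, 2.8, 3.44 and 5.76 CPM and 0.999, 1.31, 1.02, 1.44 and 0.991 CPM and changed by -1.87 ± 0.30 (adjusted p = 0.00311). Ubd was 3.32-fold and Sorcs1 3.67-fold lower with alkali, and their untreated oxalate libraries all lay above the untreated controls, at 1.01 to 2.98 CPM for Ubd and 0.392 to 1.2 CPM for Sorcs1.

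Lpo, the lactoperoxidase gene, measured 1.84, 2.46, 1.37, 2.32 and 1.92 CPM in untreated and 0.517, 0.707, 0.589, 0.597 and 0.86 CPM in alkali libraries and changed by -1.58 ± 0.25 (adjusted p = 0.00313). Its raw counts were low, 47 to 84 against 15 to 33. Amz1, a metallopeptidase gene whose exons overlap those of Gna12, measured 11.3, 11.2, 8.5, 10.1 and 13 CPM and 4.2, 4.72, 5.14, 6.55 and 5.66 CPM and changed by -1.04 ± 0.15 (adjusted p = 0.00198). Eif1a, a translation initiation factor, had the smallest change of the 12, -0.51 ± 0.07 (adjusted p = 0.0019). Its libraries held 66.9, 59.7, 63.7, 61.7 and 64.8 CPM without and 45.2, 42.9, 42.5, 47.4 and 45.1 CPM with alkali, so the 1.42-fold lower level compares with SDs of 2.80 and 1.98 CPM. When any 1 of the 20 libraries was left out, the adjusted p of each of the 12 genes stayed at or below 0.0173. In the fit of the 10 oxalate libraries alone their adjusted p-values ran from 0.00617 for F2 to 0.0472 for Slc38a3, and with a weight per group from 0.000411 for F2 to 0.0472 for Eif1a.

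**Figure D2:**
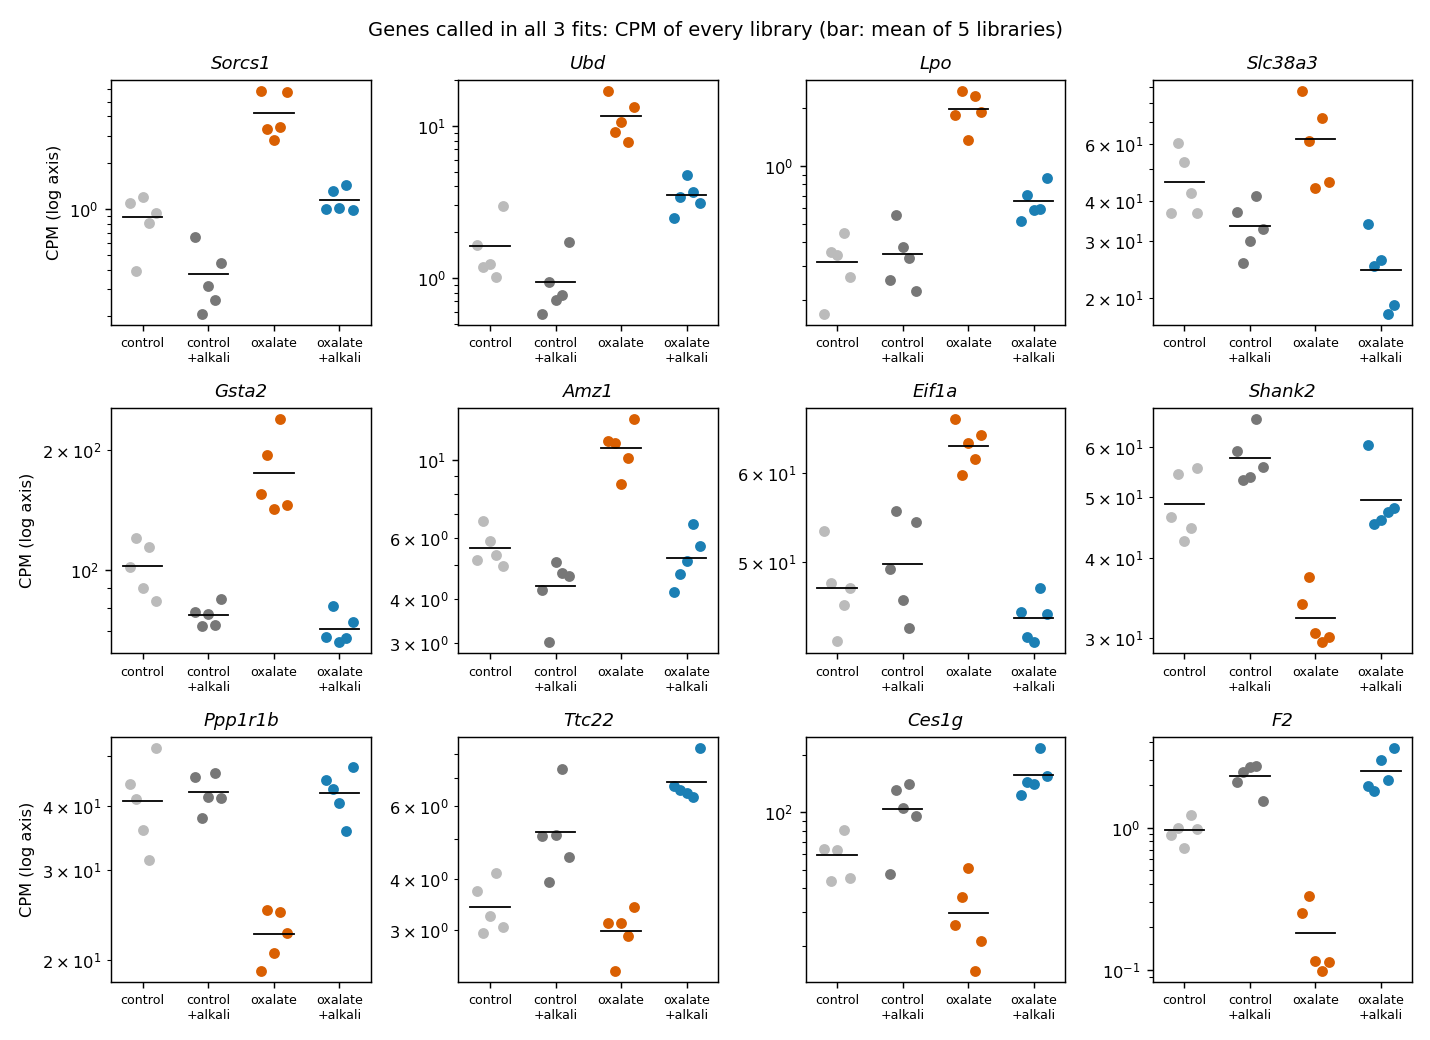
CPM of every library (log axis, 1 panel per gene) in the 4 groups for the 12 genes called in all 3 fits, with bars at the means of 5 libraries. In each panel the orange points of untreated oxalate libraries and the blue points of alkali-treated oxalate libraries do not overlap.

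Of 32 genes of ammonia production and bicarbonate transport, 2 were lower (Slc38a3 and Pck1, 6.25% of the list against 4.08% of all genes), 0 were higher, and the median change was -0.01. Both were also called with a weight per group, and Slc38a3 alone in the fit of the 10 oxalate libraries. Pck1, the cytosolic phosphoenolpyruvate carboxykinase that turns the carbon of glutamine into glucose precursors, measured 1798, 2257, 2179.8, 2469 and 859.6 CPM in untreated and 1048, 672, 582, 481 and 431 CPM in alkali libraries. Untreated library 40 and alkali library 2 were the exceptions to an otherwise clean separation. Pck1 changed by -1.57 ± 0.26 (adjusted p = 0.0041), and its highest adjusted p on leaving out 1 library was 0.0137. The fit of the 10 oxalate libraries alone gave an adjusted p of 0.0688. Glud1, glutamate dehydrogenase, held 270.1 to 375 CPM without and 259 to 373 CPM with alkali (change -0.18 ± 0.11). Slc9a3, the apical sodium/hydrogen exchanger, changed by 0.36 ± 0.14 (adjusted p = 0.153), and Slc4a4, the basolateral bicarbonate exit of the proximal tubule, by -0.06 ± 0.22 (adjusted p = 0.908). Slc13a2, the citrate carrier, changed by -0.45 ± 0.23 (adjusted p = 0.272). The gluconeogenesis list had Pck1 as its 1 called gene of 13 (7.69% against 4.08% of all genes). Its median was 0.03 (-0.01 with libraries scaled by total counts).

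The promoter of Pck1 is a textbook case of control by cyclic AMP, and the sequence just before its start is shown because Pck1 was the most abundant of the genes that fell. In RefSeq's annotation of GRCm38.p6 it lies at chr2:173152943-173153047 on the plus strand, printed 5′ to 3′ and ending before the GENCODE gene start, which is upstream of the RefSeq start.
Pck1 promoter: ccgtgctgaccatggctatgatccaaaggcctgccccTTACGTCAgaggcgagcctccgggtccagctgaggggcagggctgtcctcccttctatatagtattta
The capitals mark TTACGTCA, a variant of the cAMP response element, whose first base lies 93 bases before the RefSeq start. These letters were searched on both strands in the 250 bases before the start of 11592 genes, and 0.656% of those promoters held them. A match of letters is a description and shows no binding.

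Of 22 intercalated cell genes, 2 were higher (Slc4a1 and Aqp6, 9.09% of the list against 4.08% of all genes) and 0 lower. The median was 0.29, and 17 of the 22 changes were above 0. Slc4a1, the basolateral chloride/bicarbonate exchanger AE1 of acid-secreting intercalated cells, measured 29.6, 29.99, 38.8, 47.5 and 32.1 CPM in untreated and 50.4, 49.2, 81.6, 73.4 and 88 CPM in alkali libraries. The groups did not overlap, although alkali libraries 2 and 30 lay just above untreated library 39. Slc4a1 rose by 0.95 ± 0.16 (adjusted p = 0.00424), against -0.03 ± 0.16 in control mice, and was also called with a weight per group (adjusted p = 0.0426). It is a red cell gene too. Of the 9 red blood cell genes tested 2 were higher, Slc4a1 among them, and 0 lower (22.2% against 4.08% of all genes). The median of these 9 genes was 0.02 (-0.02 under total counts). Their summed level ran from 145 to 304 CPM in untreated and from 201 to 240 CPM in alkali libraries. Whether red cells have a part in the rise of Slc4a1 was not tested. Aqp6, a water channel of intercalated cell vesicles, measured 44.4, 44.4, 48.4, 58.6 and 54.7 CPM and 45.2, 59.3, 104, 79.5 and 111 CPM and rose by 0.67 ± 0.17 (adjusted p = 0.0347). Its groups overlapped through alkali library 2, and the call was lost without untreated library 12 or 3 or alkali library 33, 5 or 8 (adjusted p up to 0.099, without library 12). Slc26a4, the pendrin of bicarbonate-secreting cells, changed by 0.34 ± 0.13 (adjusted p = 0.137), and Atp6v1b1, a proton pump subunit, by 0.16 ± 0.10 (adjusted p = 0.367), neither of them called. Atp12a, the non-gastric proton/potassium pump, changed by 0.37 ± 0.28 in oxalate mice (adjusted p = 0.491) and by 1.89 ± 0.30 in control mice (adjusted p = 0.0642), where it had the smallest p of all genes.

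In the list of the distal convoluted tubule and magnesium handling 17 of 18 changes were above 0, with a median of 0.30. It had 3 genes called higher (Pvalb, Trpm6 and Wnk4) and 1 lower (Sgk1), together 22.2% against 4.08% of all genes. Trpm6, the apical magnesium channel, measured 22.8, 24.2, 27, 28.1 and 27.6 CPM in untreated and 33, 39.8, 38.4, 43.3 and 40.6 CPM in alkali libraries. The groups did not overlap, and Trpm6 rose by 0.59 ± 0.14 (adjusted p = 0.0267), close to its change of 0.50 ± 0.15 in control mice, which was not called. It was called in the fit of the 10 oxalate libraries alone (adjusted p = 0.0457) but not without untreated library 12 or 3 or alkali library 30, 5 or 8 (adjusted p up to 0.0849, without library 12). Pvalb, the calcium-binding parvalbumin of the early segment, measured 5.84, 9.52, 17.4, 16.2 and 3.93 CPM and 21.3, 30.7, 15.3, 30.3 and 27.7 CPM and rose by 1.25 ± 0.31 (adjusted p = 0.0287). Untreated libraries 12, 3 and 40 were low, libraries 32 and 39 reached alkali library 33, and the call was lost without the same 5 libraries as that of Trpm6 (adjusted p up to 0.0882). Parvalbumin is also a muscle gene. Of 10 skeletal muscle genes 6 did not reach the count filter, among them Acta1, Ckm and Myh4, which stayed at or below 0.265, 0.103 and 0.232 CPM. Pvalb was the 1 called gene of the 4 muscle genes tested (25% against 4.08% of all genes, median 0.36). Whether muscle has a part in the rise of Pvalb was not tested.

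Wnk4, the kinase that controls the sodium-chloride cotransporter, rose by 0.53 ± 0.15 (adjusted p = 0.0454), a call that 15 of the 20 single-library omissions removed (adjusted p up to 0.132, without alkali library 30). Slc12a3, that cotransporter, held 780.0 to 1533 CPM without and 1438 to 1894 CPM with alkali and was not called (change 0.45 ± 0.17, adjusted p = 0.131). Sgk1, the kinase induced by aldosterone and glucocorticoids, measured 97.4, 136, 82.3, 108 and 137 CPM in untreated and 69.4, 49.4, 55.4, 57.7 and 73.2 CPM in alkali libraries. Every alkali library lay below every untreated one, and Sgk1 changed by -0.88 ± 0.20 (adjusted p = 0.0208), and was not called without untreated library 3 or 40 or alkali library 30 (adjusted p up to 0.0641, without alkali library 30). The counts of 3 higher and 1 lower became 0 and 0 without untreated library 3, without alkali library 30, or without untreated libraries 12 and 3, and 0 and 1 without untreated library 12 or alkali library 5 or 8. They were 2 and 0 without untreated library 40, 5 and 1 without alkali library 33, and 7 and 1 without untreated library 32.

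In the principal cell list 1 of 14 genes was higher (7.14% against 4.08% of all genes) and 0 lower, with a median of 0.20. Aqp4, the basolateral water channel, measured 6.26, 4.93, 10.2, 10.9 and 7.75 CPM and 30.1, 14, 35.5, 15.3 and 13.8 CPM and rose by 1.44 ± 0.31 (adjusted p = 0.0161, and 0.0552 without untreated library 12). Alkali libraries 2 and 33 were highest, and every alkali library exceeded the untreated ones. Aqp2, the water channel controlled by vasopressin, changed by 0.09 ± 0.23 and Scnn1a, a subunit of the sodium channel, by 0.11 ± 0.14, neither of them called. The thick ascending limb list had 0 called of 15 genes (median 0.25). Egf, a growth factor precursor of the distal nephron, changed by 0.37 ± 0.22 (adjusted p = 0.353) and Umod by 0.10 ± 0.14 (adjusted p = 0.742).

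Genes of calcium, phosphate and vitamin D handling moved in both directions. Of 28 tested, Slc34a3, Kl and Vdr were higher, Cyp27b1 and Slc20a1 were lower, and the median was 0.09. The share called was 17.9%, against 4.08% of all genes. Cyp27b1, the 1-alpha-hydroxylase that activates vitamin D, measured 26.3, 35.3, 24.2, 40.3 and 15.9 CPM in untreated and 5.58, 6.46, 2.62, 9.83 and 12.9 CPM in alkali libraries. Every alkali library lay below every untreated one, and Cyp27b1 changed by -1.92 ± 0.44 (adjusted p = 0.0224). Control mice held 1.36 to 8.59 CPM without and 1.78 to 6.29 CPM with alkali. The call was lost without alkali library 30 (adjusted p = 0.0633). Vdr, the vitamin D receptor, measured 225, 272, 270.1, 225 and 166 CPM and 389, 289, 287, 307 and 334 CPM and rose by 0.47 ± 0.12 (adjusted p = 0.0307), a call lost without untreated library 12, 39 or 40 or alkali library 2, 30 or 8 (adjusted p up to 0.0859, without library 12).

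Kl encodes klotho, the co-receptor for fibroblast growth factor 23 in the distal tubule, and measured 423, 578, 668, 613 and 397 CPM in untreated and 943, 783, 734, 813 and 764 CPM in alkali libraries. The groups were separate, with untreated libraries 12 and 40 lowest, and Kl rose by 0.59 ± 0.13 (adjusted p = 0.0176, and 0.0612 without untreated library 12). Slc34a3, a phosphate cotransporter of the proximal tubule, measured 20.5, 43.9, 39.4, 37.4 and 14 CPM and 60.2, 66, 44.5, 53.3 and 55.8 CPM and rose by 0.85 ± 0.21 (adjusted p = 0.0276). Its lowest alkali library, 33, was just above untreated library 3, and the call was lost without untreated library 12 or alkali library 30 or 8 (adjusted p up to 0.0876, without library 12). Slc20a1, a phosphate carrier expressed in most cells, changed by -0.94 ± 0.26 (adjusted p = 0.0438), a call that 15 of the 20 single-library omissions removed (adjusted p up to 0.156, without library 12). Calb1, the calcium-binding protein calbindin, and Trpv5, the calcium channel of the same segment, were not called (changes 0.09 ± 0.16 and 0.01 ± 0.14). Slc26a6, an apical exchanger that carries oxalate, was not called either (change -0.19 ± 0.12, adjusted p = 0.414). None of the 5 calls was made in the fit of the 10 oxalate libraries alone, with a weight per group, or without untreated libraries 12 and 3. The liver genes of oxalate metabolism Agxt and Hao1 did not reach the count filter and stayed at or below 0.0457 and 0.0689 CPM.

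In the renin-angiotensin list, Ren1 and Agtr1a were higher and Anpep lower among 11 genes tested (median 0.02, and -0.05 when libraries were scaled by total counts). Together they made up 27.3% of the list, against 4.08% of all genes. Agtr1a, the angiotensin II receptor, measured 30.5, 33.3, 34.1, 31.4 and 32.1 CPM in untreated and 52.5, 43.3, 42.3, 45.1 and 43.5 CPM in alkali libraries. The untreated libraries were tight and all lay below the alkali ones, and Agtr1a rose by 0.49 ± 0.08 (adjusted p = 0.00311, and 0.0472 in the 10 oxalate libraries alone). Ren1, renin, measured 45.2, 61.5, 52.4, 71.8 and 40.2 CPM and 57.4, 101, 73.9, 91.2 and 153 CPM and rose by 0.81 ± 0.21 (adjusted p = 0.0307). Alkali library 2 lay inside the untreated range, and the call was lost without untreated library 12 or 40 or alkali library 30 or 8 (adjusted p up to 0.0943, without library 12). Anpep, aminopeptidase N of the brush border, changed by -0.55 ± 0.13 (adjusted p = 0.0258), a call lost without untreated library 12 or 40 or alkali library 30 or 5 (adjusted p up to 0.0714, without library 40).

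Genes that injured tubule cells switch on were lower with alkali. Of 30 tubular injury genes, 12 were lower (40% of the list against 4.08% of all genes) and 0 higher. Of the 30 changes 28 were below 0, and the median was -0.79, against -0.04 for alkali in control mice. The list rests partly on genes already known to move in these libraries, so its count is not independent evidence of its direction. In bulk RNA, fewer injured cells and less RNA per cell cannot be told apart, here and in the immune lists. Nor does bulk RNA show which cells held the transcripts of this list. Macrophage genes were lower in the same libraries, as given below, and their part was not tested. Havcr1, the kidney injury molecule KIM-1, measured 137, 31.1, 32.6, 26.8 and 36.8 CPM in untreated and 11.1, 14.1, 17.8, 11.1 and 14.7 CPM in alkali libraries. The groups did not overlap, untreated library 12 was far above the other untreated libraries, and the change of -1.95 ± 0.41 (adjusted p = 0.014) became -1.21 without it, still called. Vcam1, an adhesion molecule of damaged proximal tubule cells and endothelium, measured 197, 121, 95.4, 97.6 and 196 CPM and 32.7, 37.1, 77.5, 61.6 and 55.6 CPM and changed by -1.42 ± 0.25 (adjusted p = 0.00522), with all alkali libraries lower. Sox9, which marks tubule cells in repair, measured 35.7, 18.5, 6.2, 5.95 and 11.6 CPM and 1.93, 2.52, 5.21, 4.83 and 4.67 CPM and changed by -2.02 ± 0.41 (adjusted p = 0.011). Untreated libraries 32 and 39 lay just above alkali library 33.

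Krt20, a keratin that appears in injured tubules, measured 15.8, 7.92, 6.43, 4.2 and 7.07 CPM in untreated and 1.07, 1.49, 3.54, 2.15 and 1.43 CPM in alkali libraries and changed by -2.10 ± 0.51 (adjusted p = 0.0267), a call lost without untreated library 12 or 3 or alkali library 2, 30 or 8 (adjusted p up to 0.106, without library 12). Lgals3, galectin-3, measured 312, 251, 141, 194 and 418 CPM and 45.3, 78.4, 135, 121 and 136 CPM and changed by -1.35 ± 0.26 (adjusted p = 0.00894). Cd44, the hyaluronan receptor, measured 51.5, 34.8, 24.8, 30.1 and 77.9 CPM and 9.58, 12.4, 25.1, 20.9 and 16.4 CPM and changed by -1.38 ± 0.29 (adjusted p = 0.0135), with alkali library 33 inside the untreated range. The other 6 lower genes were Tnfrsf12a (-1.17), Plaur (-1.22), Vim (-1.01), Anxa3 (-0.95), Anxa2 (-0.79) and Krt8 (-0.57), given as log2 changes. Krt8 was called whichever library was left out, while the calls of the other 5 were lost without untreated library 12 or 3 or alkali library 30, and for some without further libraries (adjusted p up to 0.129, for Vim without untreated library 40).

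Lcn2 and Spp1, both injury genes, were not called. Lcn2, neutrophil gelatinase-associated lipocalin, held 36.3 to 95.1 CPM without and 12.2 to 71.8 CPM with alkali (change -0.61 ± 0.36, adjusted p = 0.352), and Spp1, osteopontin, 2146 to 3879.5 and 1078 to 3196 CPM (change -0.53 ± 0.21, adjusted p = 0.157). The count of 12 lower genes fell to 6 without untreated library 12, untreated library 3 or alkali library 30, to 7 without alkali library 2, and to 1 without untreated libraries 12 and 3. With a weight per group 3 of the 30 were called (Vcam1, Cd44 and Lgals3), and in the 10 oxalate libraries alone 0.

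**Figure D3:**
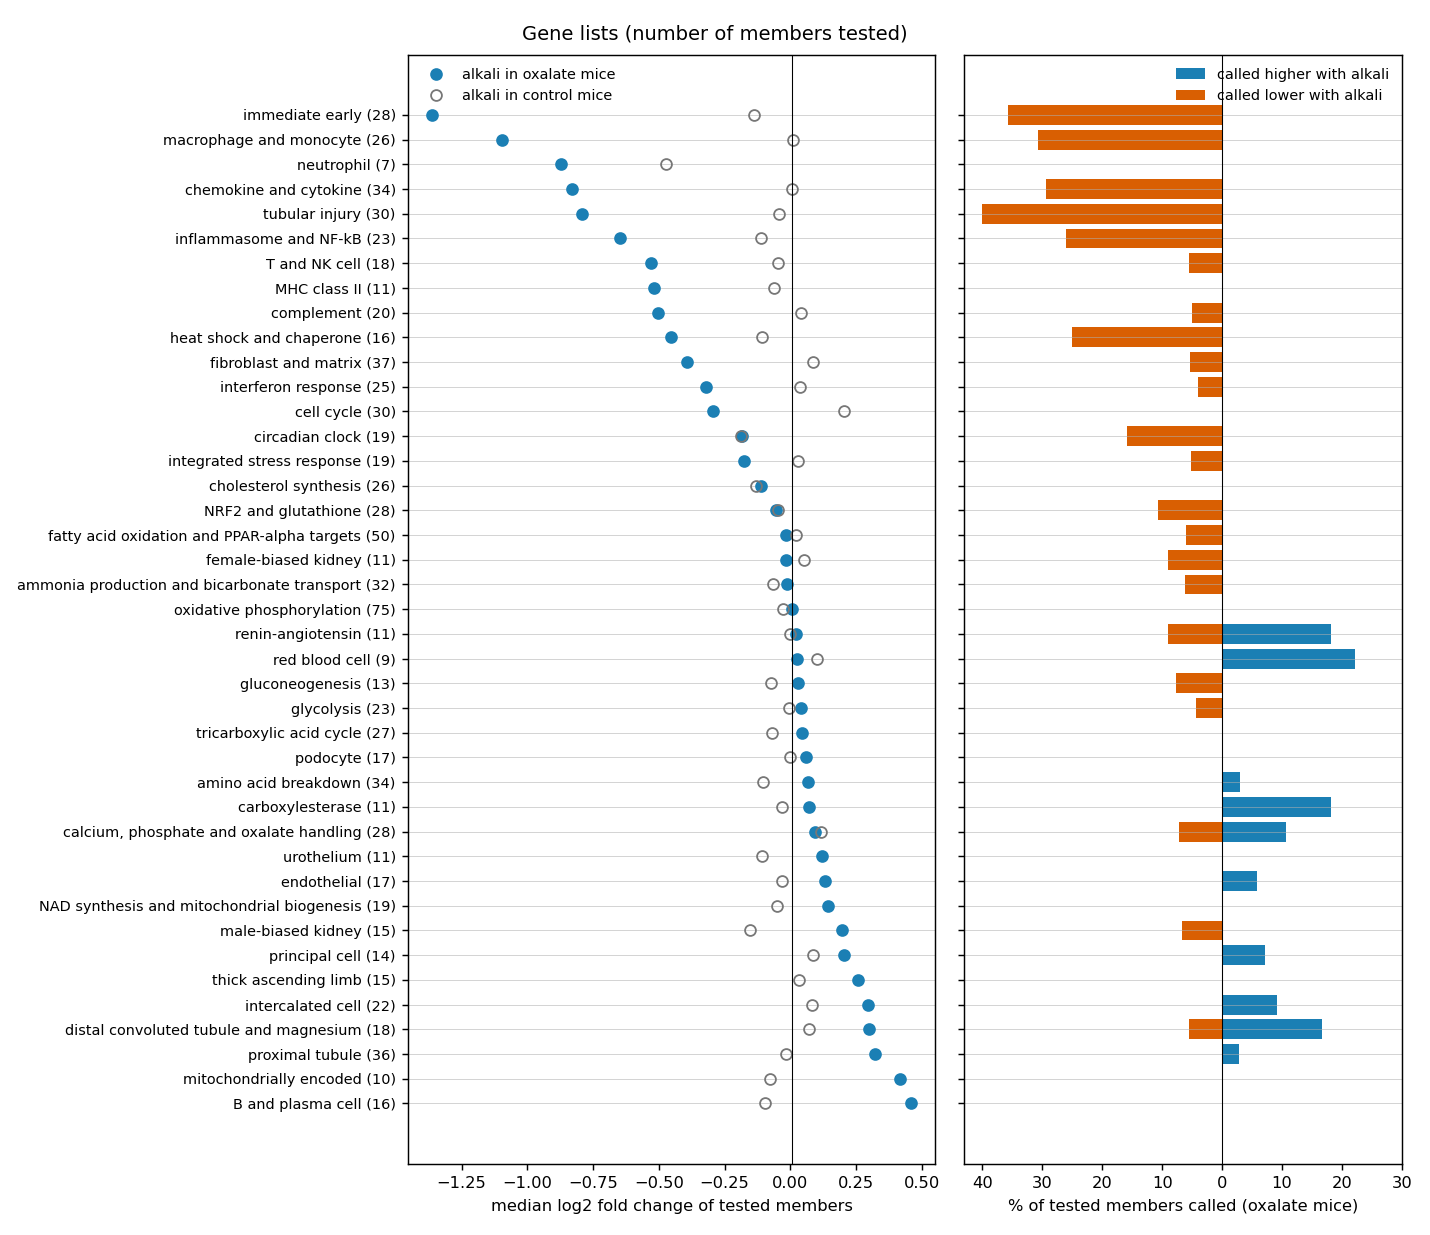
Median log2 fold change of the tested members of each gene list with at least 5 of them, apart from the adipose and adrenal list (left, filled for alkali in oxalate mice and open for alkali in control mice, with a line at the median of all genes), and the percentage of members called lower or higher in oxalate mice (right). Immediate early, macrophage, neutrophil, chemokine and injury lists lie lowest, from -1.36 to -0.79, while in control mice their medians lie between -0.14 and 0.01, apart from the neutrophil list at -0.47.

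Chemokines that recruit monocytes and neutrophils were lower as well. Of 34 chemokine and cytokine genes, 10 were lower (29.4% of the list against 4.08% of all genes) and 0 higher. Of the 34 changes 32 were below 0, with a median of -0.83 against 0.01 in control mice. Cxcl1, a neutrophil attractant, measured 45.2, 17.4, 5.24, 3.7 and 11.1 CPM in untreated and 1.52, 1.67, 2.29, 2.36 and 2.01 CPM in alkali libraries and changed by -3.07 ± 0.64 (adjusted p = 0.0129). Cxcl2, its neighbour on chromosome 5, measured 8.96, 5.99, 2.04, 2.68 and 4.89 CPM and 0.551, 0.429, 1.77, 0.815 and 0.547 CPM and changed by -2.59 ± 0.51 (adjusted p = 0.00947). Neither gene overlapped between groups, and for both untreated library 12 was highest. Ccl2, which draws monocytes, measured 41.9, 30.7, 10.4, 11.9 and 13.4 CPM and 2.62, 4.24, 5.7, 4.62 and 5.14 CPM and changed by -2.28 ± 0.49 (adjusted p = 0.0149). The calls of Cxcl1 and Ccl2 were lost without untreated library 12 (adjusted p = 0.0512 and 0.0567), while Cxcl2 and Cxcl10 were called whichever library was left out (adjusted p at most 0.0399 and 0.0314).

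Cxcl10, an interferon-induced chemokine that draws T cells, measured 33.4, 22.6, 13.3, 15.1 and 17.5 CPM in untreated and 3.96, 7.32, 10.8, 8.28 and 5.53 CPM in alkali libraries, with no overlap, and changed by -1.51 ± 0.29 (adjusted p = 0.00814). It was the 1 member also called with a weight per group. The remaining lower members were Ccl7 (-1.83), Ccl3 (-1.82), Il1rn (-1.81), Ccl9 (-1.46), Ccl6 (-1.43) and Ccl5 (-0.83). Il1rn encodes the antagonist of the interleukin 1 receptor, so it opposes the signal of that cytokine. The calls of these 6 genes were lost without untreated library 12 or alkali library 30, and for some without further libraries (adjusted p up to 0.139, for Ccl7 without untreated library 12). Il1a and Il6 did not reach the count filter, at or below 1.99 and 3.12 CPM in every oxalate library. Without untreated library 12 the count of lower genes was 2, without alkali library 30 it was 4, without untreated library 40 it was 5, without alkali library 8 it was 6, and without untreated libraries 12 and 3, or in the 10 oxalate libraries alone, it was 0.

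Of 23 inflammasome and NF-kB genes, 6 were lower (26.1% of the list against 4.08% of all genes) and 0 higher, with a median of -0.65. NF-kB is a transcription factor that drives chemokine genes and also the genes of its own inhibitors. Tlr2, a receptor for microbial and damage signals, measured 22.7, 17.5, 8.68, 12.4 and 23.9 CPM in untreated and 3.65, 4.75, 9.89, 7.12 and 8.39 CPM in alkali libraries and changed by -1.33 ± 0.29 (adjusted p = 0.0171, and up to 0.0569 without untreated library 12, or without alkali library 30). Alkali library 33 lay above untreated library 32, so the groups overlapped. Tnfaip3, which shuts the pathway off, measured 43.9, 30.4, 12.8, 14.6 and 32.6 CPM and 8.13, 9.54, 16.3, 12.9 and 12.3 CPM and changed by -1.18 ± 0.30 (adjusted p = 0.0296), a call lost without untreated library 12, 3 or 40 or alkali library 2, 30 or 8 (adjusted p up to 0.111). The others were Tnfrsf1b (-1.28), Nfkbia (-0.76), Nfkb2 (-0.75) and Icam1 (-0.73). The count of 6 was 0 without untreated library 12 or alkali library 30, 1 without untreated library 3 or alkali library 2, and 2 without untreated library 40 or alkali library 8. It was 10 without untreated library 32 and 11 without alkali library 33, and 0 in the 10 oxalate libraries alone and with a weight per group.

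The promoters of Cxcl1 and Cxcl2 are shown because both genes fell and carry the same kappaB element, the letters that NF-kB recognises, just before the start. RefSeq's annotation of GRCm38.p6 places the stretches at chr5:90891115-90891240 and chr5:90903769-90903870, both on the plus strand, printed 5′ to 3′ and likewise ending before the GENCODE start.
Cxcl1 promoter: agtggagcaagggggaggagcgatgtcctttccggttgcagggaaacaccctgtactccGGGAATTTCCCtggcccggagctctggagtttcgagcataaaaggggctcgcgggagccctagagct
Cxcl2 promoter: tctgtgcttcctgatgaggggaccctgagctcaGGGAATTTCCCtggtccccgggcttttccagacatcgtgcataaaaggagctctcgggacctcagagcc
The capitals mark the kappaB match, read on both strands, whose first base lies 71 bases before the RefSeq start in Cxcl1 and 97 in Cxcl2. In the 250 bases before the start a kappaB match was present in 4.45% of 11592 promoters, in 26 of the 274 called lower genes with a promoter in the table and in 6 of the 213 called higher genes. Other motifs were searched in the same way (N is any base). CACGTG matched in 25 lower and 21 higher genes, and in 8.01% of the 11592 promoters. TGANTCA matched in 20 and 14 (4.53% of all promoters) and TATAAA in 31 and 14 (6.99%). TGACG matched in 62 and 43 (25.2%), TGACGTCA in 8 and 2 (2.53%), and TTACGTCA in 4 and 0 (0.656%). A serum response element matched in 4 and 4 (1.09%), and a heat shock element, in either phase, in 2 and 2 (0.319% for each phase). These shares are a description with no test, and a match shows no binding.

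Macrophage and monocyte genes had a median of -1.10, with 8 of 26 lower (30.8% against 4.08% of all genes), 0 higher and 25 changes below 0. Their summed level ran from 1612 to 6731 CPM in untreated and from 597 to 2317 CPM in alkali libraries, and for none of the 26 genes were the groups separate. Gpnmb, a glycoprotein of lipid-laden macrophages, measured 499.6, 435, 92.3, 255 and 1235 CPM in untreated and 9.92, 40.6, 144, 111 and 175 CPM in alkali libraries. Untreated library 40 was highest and untreated library 32 lay below 3 of the alkali libraries. Gpnmb changed by -2.39 ± 0.60 (adjusted p = 0.0332), a call lost without untreated library 12, 3 or 40 or alkali library 30 or 5 (adjusted p up to 0.114, without library 40). Lyz2, lysozyme, measured 971, 826, 396, 706 and 1879 CPM and 96.8, 209, 491, 385 and 387 CPM and changed by -1.61 ± 0.38 (adjusted p = 0.025). Trem2, a lipid receptor of macrophages, measured 33.6, 28.3, 10.9, 22.8 and 58.6 CPM and 1.89, 4.8, 11.4, 10.5 and 13.2 CPM and changed by -1.88 ± 0.45 (adjusted p = 0.0252). The calls of Lyz2 and Trem2 were lost without untreated library 12 or 40 or alkali library 30 (adjusted p up to 0.0725 and 0.0717).

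The other lower macrophage genes were Msr1 (-1.75), Ctss (-1.58), Tyrobp (-1.38), Itgam (-1.37) and Cd14 (-1.22), of which Msr1 moved to -1.12 and Itgam to -0.86 without untreated library 40. Cd68, a lysosomal protein used to mark macrophages, held 89.1, 75.2, 23.9, 53.1 and 166 CPM and 6.68, 18.7, 35.1, 32.7 and 48.3 CPM and did not pass the threshold (change -1.53 ± 0.44, adjusted p = 0.0551). Without untreated library 12, untreated library 40 or alkali library 30, 0 of the 26 genes were called, without untreated library 32 the count was 19, without alkali library 33 it was 13, and without alkali library 5 it was 5. It was 0 in the 10 oxalate libraries alone and with a weight per group.

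Other immune lists held few calls, at most 5.56% of a list against 4.08% of all genes. Among 18 T and NK cell genes Il7r, the interleukin 7 receptor, was the 1 lower gene, at 21.7, 18.6, 6.93, 16.1 and 66.3 CPM without and 1.89, 4.52, 7.83, 8.72 and 9.1 CPM with alkali (change -2.01 ± 0.47, adjusted p = 0.0249). Untreated library 40 was far above the others, untreated library 32 lay among the alkali libraries, and without library 40 the change was -1.29 and not called (adjusted p = 0.0752); the call was also lost without untreated library 12 or alkali library 30. The list median was -0.53, and all 18 changes were below 0. Of 7 neutrophil genes 0 were called (median -0.87, summed level 6.76 to 21.5 CPM against 3.69 to 11.002 CPM), and Ly6g, Camp and Ngp stayed at or below 0.0782, 0 and 0.0291 CPM. Of 16 B and plasma cell genes 0 were called, with a median of 0.46 and a summed level of 251 to 418 CPM without and 234 to 999 CPM with alkali. The 999 CPM came from alkali library 33, also the highest for Adipoq, and the next alkali library held 399 CPM. The median summed level was 291 CPM without and 269 CPM with alkali. MHC class II genes had 0 called of 11 (median -0.52). In the interferon response list Bst2, tetherin, was the 1 lower gene of 25 (-0.66 ± 0.16, adjusted p = 0.0265, lost without untreated library 12 or 3 or alkali library 30, up to 0.0893), with a median of -0.32. In the complement list Hc, complement C5, was the 1 lower gene of 20 (-1.94 ± 0.40, adjusted p = 0.0112), at 0.298 to 1.92 CPM without and 0.19 to 0.36 CPM with alkali, and the median was -0.50. C3, the central complement component, was not called (162 to 402 against 46.3 to 193 CPM, change -1.18 ± 0.40, adjusted p = 0.0963).

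Of 37 fibroblast and matrix genes, 2 were lower, Thbs1 among them, and 0 were higher. The share called, 5.41%, was near the 4.08% of all genes. Of the 37 changes 35 were below 0, and the median was -0.39. In the 10 oxalate libraries alone and with a weight per group 0 were called. Thbs1, thrombospondin 1, measured 253, 265, 103, 97.4 and 139 CPM in untreated and 86.8, 95.1, 99.4, 104 and 92.9 CPM in alkali libraries and changed by -0.84 ± 0.21 (adjusted p = 0.0293). Untreated libraries 12 and 3 carried its highest values, and untreated libraries 32 and 39 lay among the alkali libraries. The call was lost without untreated library 12 or 3 or alkali library 2, 30 or 8 (adjusted p up to 0.108). Col1a1, the main fibrillar collagen, held 75.2 to 292 CPM without and 53.6 to 159 CPM with alkali (change -0.67 ± 0.35, adjusted p = 0.292), and Fn1, fibronectin, 96.2 to 368 and 65.1 to 196 CPM (change -0.65 ± 0.30, adjusted p = 0.232). Neither was called. Cell cycle genes had 0 called of 30 (median -0.30).

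Immediate early genes are transcribed within minutes after a cell is stimulated, without new protein synthesis. Their median, -1.36, was the lowest of the lists, with 10 of 28 lower (35.7% against 4.08% of all genes), 0 higher and all 28 changes below 0. Fosb measured 21.5, 29.96, 1.14, 1.06 and 3.11 CPM in untreated and 0.31, 0.53, 0.884, 0.407 and 0.678 CPM in alkali libraries, and Nr4a3, a nuclear receptor, 40.5, 33, 3.06, 2.18 and 4.66 and 0.379, 0.909, 1.64, 1.11 and 1.64 CPM. Untreated libraries 12 and 3 stood far above the other 3 untreated libraries for both genes, although all alkali libraries were lower still. The changes were -4.32 ± 1.03 for Fosb (adjusted p = 0.0258) and -3.86 ± 1.05 for Nr4a3 (adjusted p = 0.0453). The call of Fosb was lost without untreated library 12 or 3 or alkali library 2, 30, 5 or 8 (adjusted p up to 0.0723, without alkali library 30), and 13 of the 20 single-library omissions removed that of Nr4a3 (up to 0.128, without library 12). Egr1, the zinc finger factor most used as a marker of this response, held 341, 329.9, 22.9, 18.4 and 59 CPM and 12.2, 16, 48.6, 18 and 22.8 CPM and was not called (change -2.71 ± 0.99, adjusted p = 0.125). Untreated libraries 12 and 3 were again far above all others. Fos was not called either (change -2.25 ± 0.64, adjusted p = 0.0525).

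Atf3, a stress-induced factor, measured 86.3, 78.7, 12.8, 16.1 and 52.3 CPM in untreated and 2.34, 4.62, 7.6, 7.74 and 8.24 CPM in alkali libraries and changed by -3.01 ± 0.83 (adjusted p = 0.0485). Here untreated library 40 was high too, and 13 of the 20 single-library omissions removed the call (adjusted p up to 0.131, without library 12). Egr3, a zinc finger factor like Egr1, changed by -2.85 ± 0.65 (adjusted p = 0.0212, lost without untreated library 12 or 3 or alkali library 30, up to 0.0672). Ccn1, a matricellular protein induced by serum and stretch, had no such gap among its untreated libraries. It measured 120.4, 100.1, 61.9, 59.4 and 67.5 CPM and 30.1, 35.8, 26.9, 32.8 and 30.7 CPM with no overlap, changed by -1.39 ± 0.24 (adjusted p = 0.00455) and was called in the 10 oxalate libraries alone (adjusted p = 0.0187). The other lower genes were Fosl1 (-2.58), Fosl2 (-1.60), Klf6 (-1.16), Ier3 (-1.11) and Klf4 (-0.67). Without untreated library 12 or alkali library 30 the count of lower genes was 2, without untreated library 3 it was 3, without alkali library 2 it was 4, without alkali library 5 it was 5 and without alkali library 8 it was 6. Without untreated library 32 it was 17, and without untreated libraries 12 and 3 it was 0. Ccn1 was the 1 gene of the list called in the 10 oxalate libraries alone, and 0 were called with a weight per group.

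Of 16 heat shock and chaperone genes, Hspa1a, Hspa1b, Hspb1 and Dnajb1 were lower, 0 were higher, and the median was -0.45. The share called was 25%, against 4.08% of all genes. In the 10 oxalate libraries alone and with a weight per group 0 of the 16 were called. Untreated library 12 held the highest level of each of the 4 lower genes. Hspa1b, an inducible Hsp70, measured 392, 211, 187, 74.5 and 40.1 CPM in untreated and 15.9, 30.2, 14.8, 29 and 23.1 CPM in alkali libraries. Its near-identical neighbour Hspa1a measured 274, 148, 103, 44.4 and 22.3 CPM and 9.33, 21.2, 6.97, 17.7 and 15.7 CPM, and because reads can fit both copies the split between them is uncertain. Every alkali library was below every untreated one for both genes, and the changes were -3.00 ± 0.69 (adjusted p = 0.0236) and -3.05 ± 0.75 (adjusted p = 0.0284). Both calls were lost without untreated library 12 or alkali library 2 or 30, and that of Hspa1a also without untreated library 3 or alkali library 8 (adjusted p up to 0.0779 and 0.099). Hspb1, the small heat shock protein Hsp27, measured 98, 48.2, 50.8, 26.2 and 22.6 CPM and 6.75, 16.3, 13.6, 16.6 and 16.8 CPM and changed by -1.81 ± 0.35 (adjusted p = 0.00928). Hspb1 stayed called whichever library was left out (adjusted p at most 0.0303). Dnajb1, a co-chaperone of Hsp70, changed by -1.20 ± 0.33 (adjusted p = 0.0441), a call that 13 of the 20 single-library omissions removed (up to 0.139). Without untreated library 12 or alkali library 30 the list held 1 lower gene, without untreated library 3, alkali library 2 or alkali library 8 it held 2, without untreated library 40 it held 6, and without untreated libraries 12 and 3 it held 0. In the integrated stress response list Ddit3 (CHOP) was the 1 lower gene of 19 (-0.98 ± 0.24, adjusted p = 0.0256, lost without untreated library 12 or 3 or alkali library 2, up to 0.0882). That is 5.26% of the list, near the 4.08% of all genes, with a median of -0.18.

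**Figure D4:**
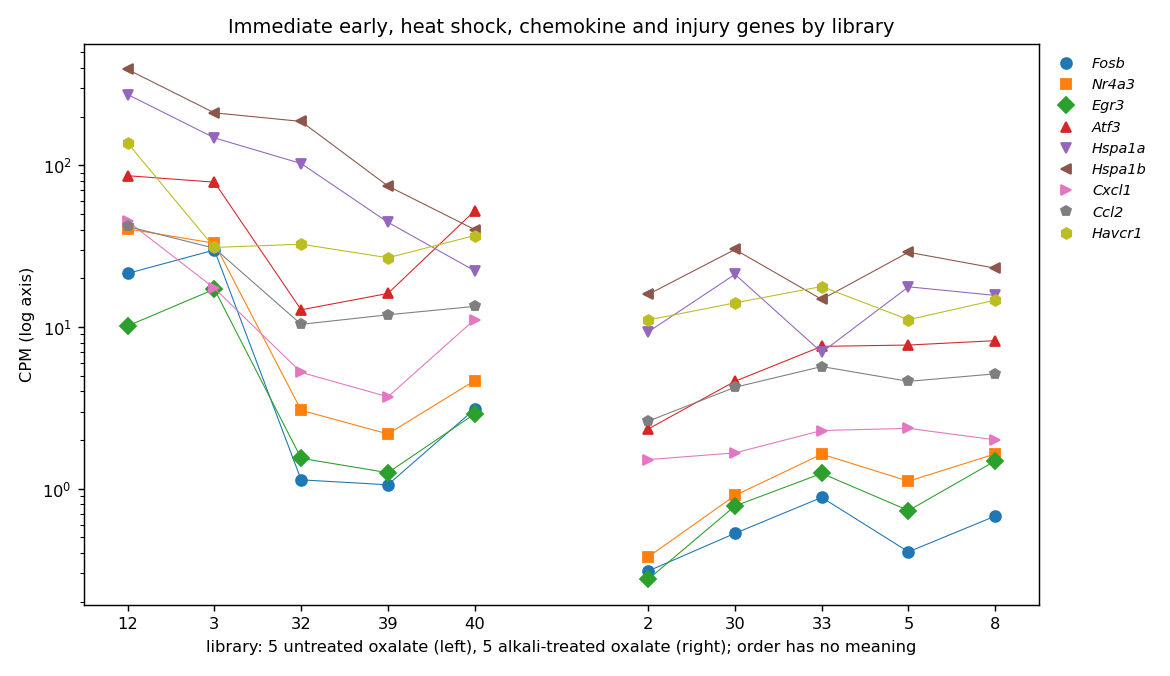
CPM (log axis) of 9 immediate early, heat shock, chemokine and injury genes in the 5 untreated (left) and 5 alkali-treated (right) oxalate libraries, with points of a gene joined for legibility. Fosb, Nr4a3 and Egr3 of untreated libraries 12 and 3 stand far above the other untreated libraries, while Hspa1b and Havcr1 of all untreated libraries lie above those with alkali.

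Clock genes were compared because a difference in the hour of sampling would move them. Of 19 circadian clock genes, Ciart, Bhlhe41 and Bhlhe40 were lower, 0 were higher, and the median was -0.18, against -0.19 in control mice. Together they made up 15.8% of the list, against 4.08% of all genes. Ciart, a repressor of the clock, measured 2.92, 3.03, 3.29, 4.13 and 1.94 CPM in untreated and 0.551, 2.1, 1.24, 0.978 and 1.02 CPM in alkali libraries and changed by -1.37 ± 0.33 (adjusted p = 0.0255). Dbp, an output gene of the clock with a wide daily swing, measured 22.3, 23, 49.6, 44.4 and 18.2 CPM and 16, 37.6, 11, 14.9 and 16.1 CPM and was not called (change -0.71 ± 0.33, adjusted p = 0.226). Its level varied within both groups, with untreated libraries 32 and 39 and alkali library 30 high. Per1, which also responds to stress hormones and cyclic AMP, held 121, 130.4, 35, 33.5 and 62.1 CPM and 31.1, 37, 12.1, 41.4 and 56.7 CPM and was not called (change -1.10 ± 0.47, adjusted p = 0.194). Bhlhe40 changed by -1.01 ± 0.25 (adjusted p = 0.0289) and Bhlhe41 by -1.33 ± 0.32 (adjusted p = 0.0264). The call of Ciart was lost without untreated library 12 or alkali library 5 or 8, that of Bhlhe40 without untreated library 12 or 3 or alkali library 2, 30 or 5, and that of Bhlhe41 without untreated library 40 or alkali library 30 (adjusted p up to 0.0571, 0.108 and 0.0756).

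Cyp4a14, a cytochrome P450 that hydroxylates fatty acids and responds to PPAR-alpha, had the largest change of all called genes. It measured 339.5, 349, 82, 729 and 76.2 CPM in untreated and 8.3, 10.2, 6.55, 17.5 and 20.3 CPM in alkali libraries. The untreated libraries varied widely, yet the lowest of them, library 40, was above all alkali libraries. Cyp4a14 changed by -4.64 ± 0.91 (adjusted p = 0.0107, and 0.0207 in the 10 oxalate libraries alone). In control mice it was as variable, at 10.9 to 164 CPM without and 10.2 to 87.6 CPM with alkali. Cyp4a10, a close relative, measured 425, 581, 410.1, 797 and 224 CPM and 231, 188, 126, 224 and 235 CPM and changed by -1.28 ± 0.30 (adjusted p = 0.0252, lost without untreated library 12, 3 or 39 or alkali library 30, up to 0.066). Untreated library 40 lay among alkali libraries 2, 5 and 8, so the groups overlapped. The Cyp4a genes are similar in sequence, so their counts may be shared in part. Plin2, which coats lipid droplets, changed by -0.41 ± 0.11 (adjusted p = 0.0445), a call that 14 of the 20 single-library omissions removed (adjusted p up to 0.115, without alkali library 30).

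These 3 were the called genes (6% of the list, against 4.08% of all genes) among 50 of fatty acid oxidation and PPAR-alpha targets, whose median was -0.02. Mogat2, an acyltransferase of triglyceride synthesis, measured 12.1, 22.9, 20.9, 29.1 and 9.63 CPM in untreated and 6.85, 6.97, 2.75, 3.99 and 3.34 CPM in alkali libraries, with no overlap, and changed by -1.98 ± 0.29 (adjusted p = 0.00247). Of 26 cholesterol synthesis genes 0 were called (median -0.11).

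Carboxylesterases, which cleave esters of lipids and drugs, had 2 of 11 genes higher (18.2% against 4.08% of all genes) and 0 lower, with a median of 0.07. Beside Ces1g, its neighbour Ces1c rose by 2.08 ± 0.37 (adjusted p = 0.00514), from 0.139, 0.233, 0.204, 0.0992 and 0.0915 CPM to 0.517, 0.303, 0.95, 0.842 and 0.652 CPM, a low level throughout. Both were also called without untreated libraries 12 and 3. Ces2h, a relative outside the list, measured 1.95, 3.06, 3.03, 2.48 and 1.33 CPM and 8.06, 5.25, 5.44, 3.99 and 4.64 CPM and rose by 1.21 ± 0.21 (adjusted p = 0.00514).

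In the list of NRF2 targets and glutathione genes, 3 of 28 were lower (Gsta2, Gstm1 and Nqo1, 10.7% against 4.08% of all genes). None was higher, and the median was -0.06. Gstm1, a glutathione transferase of another class, measured 577, 480.3, 440.2, 478 and 409 CPM in untreated and 355, 381, 356, 319 and 334 CPM in alkali libraries and changed by -0.45 ± 0.10 (adjusted p = 0.0144, and 0.0525 without untreated library 12). Its alkali libraries all lay below the untreated ones. Nqo1, a quinone reductase, changed by -0.41 ± 0.11 (adjusted p = 0.0389), and 11 of the 20 single-library omissions removed its call (adjusted p up to 0.0943, without library 12). Hmox1, heme oxygenase 1, was not called (change -0.48 ± 0.22, adjusted p = 0.22).

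Genes of energy metabolism were almost all below the threshold for a call. Of 75 nuclear oxidative phosphorylation genes 0 were called, the changes lay between -0.42 and 0.37, and the median was 0.01 (-0.04 with libraries scaled by total counts). Of 27 tricarboxylic acid cycle genes 0 were called (median 0.04, and -0.01 with that scaling). Of 23 glycolysis genes Hk3, a hexokinase of myeloid cells, was the 1 lower gene (-2.04 ± 0.44, adjusted p = 0.0155, and 0.0507 without alkali library 30), with a median of 0.04 (-0.01 under total counts). The 10 mitochondrially encoded genes tested had a median of 0.42, all above 0, and 0 were called. Their summed level ran from 61834 to 94561 CPM in untreated and from 79897 to 144844 CPM in alkali libraries. Of 19 genes of NAD synthesis and mitochondrial biogenesis 0 were called (median 0.14). Of 34 amino acid breakdown genes Mccc2, of leucine breakdown, was the 1 higher gene (0.52 ± 0.14, adjusted p = 0.0446), a call that 16 of the 20 single-library omissions removed (up to 0.128, without library 12), with a median of 0.07.

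Proximal tubule genes had a median of 0.32, with 27 of 36 changes above 0, but Slc6a19 was the 1 called (2.78% against 4.08% of all genes). Their summed level ran from 25922 to 67654 CPM in untreated and from 34306 to 76132 CPM in alkali libraries. Untreated library 40 was lowest and alkali library 2 highest, while the group medians were close, at 45098 and 45537 CPM. Slc6a19, the apical carrier of neutral amino acids, measured 132, 295, 267, 239.7 and 158 CPM in untreated and 412, 364, 409, 342 and 311 CPM in alkali libraries. Untreated library 12 was lowest, no alkali library overlapped the untreated range, and Slc6a19 rose by 0.75 ± 0.18 (adjusted p = 0.0231, lost without untreated library 12 or alkali library 30, up to 0.0569). Gsta2 was the 1 called of 15 male-biased kidney genes (6.67%, median 0.19). Cyp4a14 was the 1 called of 11 female-biased genes (9.09%, median -0.02), against 4.08% of all genes. Kap changed by -0.12 ± 0.24 (adjusted p = 0.818). Of 17 podocyte genes 0 were called (median 0.06, and -0.00 under total counts), and their summed level was 1817 to 1942 CPM against 1981 to 2188 CPM. Among 17 endothelial genes Kdr, the receptor VEGFR2, was the 1 higher gene (5.88% of the list, near the 4.08% of all genes). It measured 52.3, 53.4, 51.5, 53.8 and 59.4 CPM and 67.3, 62.8, 73.5, 75.3 and 67.7 CPM, with no overlap, and rose by 0.36 ± 0.07 (adjusted p = 0.0124); the list median was 0.13. Of 11 urothelium genes 0 were called (median 0.12). The 7 adipose and adrenal genes tested had a median of 3.27 with 0 called, and their summed level was 40.9 to 68.3 CPM in untreated and 32.3 to 496 CPM in alkali libraries. Without the 6 of 20 libraries with Adipoq above 1 CPM, which were 33 and 32 and 4 libraries of control mice, 467 genes were higher and 796 lower.

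Further genes with the largest changes and no overlap between groups, at an average log2 CPM of at least 1, are given here. Col6a6, a chain of collagen VI whose exons overlap a predicted gene, measured 2.31, 2.56, 3.87, 1.52 and 3.8 CPM in untreated and 18.7, 9.54, 9.07, 3.91 and 8.68 CPM in alkali libraries and rose by 1.82 ± 0.30 (adjusted p = 0.0041). Alkali library 2 was highest, and alkali library 5 lay just above untreated library 32. Hsd3b2, a steroid dehydrogenase whose exons overlap Zfp697, measured 84.3, 109.8, 117, 93.1 and 50.01 CPM and 245, 243, 153, 173 and 237 CPM and rose by 1.21 ± 0.18 (adjusted p = 0.0031). Clec2h, a lectin-like receptor, measured 28.8, 72.7, 47.3, 39.2 and 36.8 CPM and 84.9, 117, 76.7, 98.4 and 132 CPM and rose by 1.18 ± 0.20 (adjusted p = 0.0046). The remaining higher genes were Insc, an adaptor of oriented cell division (1.38 ± 0.27), Il22ra1, the epithelial receptor for interleukin 22 (1.21 ± 0.26), Lrrc66 (1.20 ± 0.19), Ccdc151, a component of motile cilia (1.17 ± 0.19), and Rtp3 (1.12 ± 0.20). Their adjusted p-values ran from 0.00311 for Lrrc66 to 0.0161 for Il22ra1, and only the call of Il22ra1 among these 5 was lost on leaving out a library (alkali library 30, adjusted p = 0.0505).

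Alkali in control mice changed no gene past the threshold. Of the 15430 genes tested 0 were called in control mice (0% by edgeR, lowest adjusted p 0.0642), 389 had an unadjusted p under 0.05 (2.52%), and DESeq2 called 3 higher and 0 lower. This comparison shares no library with that in oxalate mice. Among the 271 genes higher in oxalate mice 207 had a change of the same sign in control mice, and among the 359 lower genes 242 did. The median change of the higher genes was 0.54 in oxalate and 0.09 in control mice, and that of the lower genes -0.87 and -0.05. The genes were chosen by their change in oxalate mice, so these medians are a description. At an unadjusted p under 0.05, 33 of the higher and 26 of the lower genes changed the same way in control mice, and 0 and 1 the opposite way.

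The difference between both effects was tested by the interaction of alkali with oxalate. It called 0 of 15430 genes (0% by edgeR), 1429 had an unadjusted p under 0.05 (9.26%), and DESeq2 called 8 higher and 7 lower. F2 came closest (interaction 2.52 ± 0.41, adjusted p = 0.0907), with a change of 1.25 ± 0.27 in control mice. The next smallest p-values were those of Eif1a (interaction -0.58 ± 0.10, adjusted p = 0.124) and Ppp1r1b (0.86 ± 0.16, adjusted p = 0.181), whose changes in control mice were 0.07 and 0.06. Gsta2 (-0.89 ± 0.18), Zfand2a (-0.66 ± 0.14), Pdxk (-0.56 ± 0.12) and Nccrp1 (1.04 ± 0.23) followed, with adjusted p-values from 0.32 to 0.36.

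Zfand2a, a zinc finger gene induced by arsenite and heat, measured 31.4, 28, 22.7, 23.8 and 31.7 CPM in untreated and 19.7, 17.5, 17.9, 19 and 16.2 CPM in alkali libraries and changed by -0.61 ± 0.10 (adjusted p = 0.00391). Pdxk, the kinase that activates vitamin B6, measured 126, 135, 125, 145 and 108 CPM and 95.2, 82.4, 83.6, 94 and 84.7 CPM and changed by -0.54 ± 0.09 (adjusted p = 0.00313). Nccrp1, a sugar-binding F-box protein, measured 11, 12.3, 14.2, 15.8 and 12.5 CPM and 26.1, 24.8, 27.6, 25.9 and 22.9 CPM and rose by 0.95 ± 0.16 (adjusted p = 0.00455). In each of these 3 genes the groups did not overlap, and the call in oxalate mice held whichever library was left out. With 0 genes called by the interaction in edgeR, that fit did not show the effect in oxalate mice to differ from that in control mice for any single gene. DESeq2 called 8 higher and 7 lower, as given above.

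**Figure D5:**
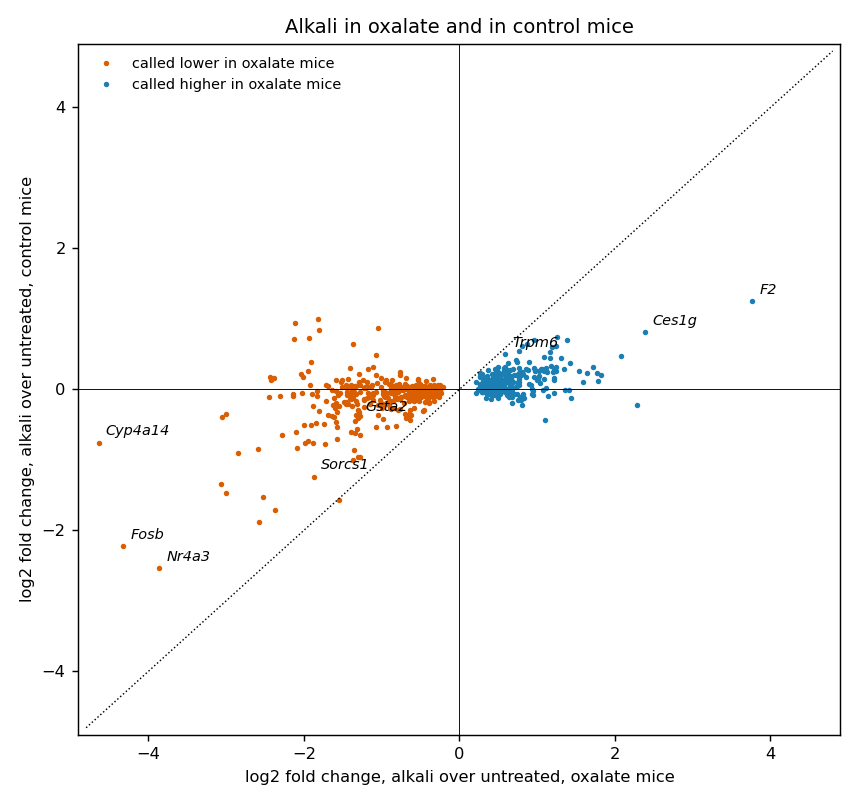
Log2 fold change of alkali over untreated in control mice (vertical axis) against that in oxalate mice (horizontal axis) for the 271 higher (blue) and 359 lower (orange) genes called in oxalate mice, with a dotted line of equal change. Most points lie near 0 on the vertical axis, and F2, Ces1g, Fosb and Nr4a3 are among those displaced from 0 in both. By edgeR no gene was called in control mice.

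For orientation, the same genes were read in untreated oxalate against untreated control libraries, a comparison that uses the same untreated oxalate libraries and so is not independent. In that comparison 7630 genes (49.4%) were called. F2 changed there by -2.39, Shank2 by -0.59 and Ppp1r1b by -0.87, while Ubd changed by 2.85, Lpo by 2.63, Sorcs1 by 2.25, Amz1 by 0.95 and Gsta2 by 0.78, all called. Ttc22 (-0.19), Slc38a3 (0.44) and Pck1 (-0.23) were not called there, with adjusted p-values of 0.335, 0.0773 and 0.487. For Slc38a3 and Pck1 the alkali-treated oxalate libraries, at 18 to 34 and 431 to 1048 CPM, reached below the untreated controls, at 36.6 to 60.3 and 1724 to 2652 CPM, with no overlap. Those groups differ in both oxalate and alkali, and this difference was not tested.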

How the data were processed

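Stranded poly(A) libraries of 20 mouse samples were sequenced, per the labels. The deposited values are raw counts per Ensembl mouse gene, which the authors made with bcl2fastq 2.19, Trimmomatic, STAR 2.7.1 and featureCounts, per the submitters' processing notes. These name the human build GRCh38.p5, so which build was used is not known, and the strand setting of the counting is not given in the sources used here, so overlapping genes are uncertain. Symbols came from GENCODE M21 (GRCm38, 25587 identifiers matched) and promoters from RefSeq (GRCm38.p6).

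Genes were kept by filterByExpr (minimum count 10), scaled by TMM and tested in R 4.3.3 with edgeR 4.0.16 (robust quasi-likelihood, 4 group means, 20 libraries). The SE is the size of a log2 change over the square root of F. Alternatives used DESeq2 1.42.0, limma 3.58.1, other scalings and filters, and fewer libraries. Code was tested on simulated data. Counts per library ran from 25547840 to 39550689.

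Genes named are the called genes of largest change, at most 12 in each direction (average log2 CPM at least 1, no overlap of groups, no predicted gene), 50 panel genes, up to 4 genes of smallest p per list over 43 lists, and 6 genes of smallest interaction p. The remaining called list members and the genes called in all 3 fits were chosen after their values were seen. Members, lists and tests were chosen with earlier results of these data known. Some genes chosen in these ways are not reported here.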

Additional observations from a re-analysis of the deposited data

Results flagged for a closer look

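In 16 of 308 groups of 5 oxalate libraries examined over the named genes, 1 library stood further from the others than Dixon's criterion for 5 samples allows (gap over range above 0.71). The same libraries were read for every gene and the genes were not picked at random, so this share was not compared with chance. The criterion also flags some groups that hold no true outlier, so the libraries below are only listed. Untreated library 40 was lowest of its group for Nqo1 at 62.3 CPM, Scnn1a at 85.7 CPM and Insc at 0.846 CPM, and highest for Bhlhe41 at 23.0 CPM. It was also highest for Arpc5 at 146 CPM and Actr3 at 187 CPM, 2 subunits of the Arp2/3 complex. Untreated library 12 was highest for Havcr1 at 137 CPM. Alkali library 2 was highest for Shank2 at 60.4 CPM and Glud1 at 373 CPM, and lowest for Hspb1 at 6.75 CPM, Ccl3 at 0.103 CPM, Klf6 at 45.2 CPM and Bst2 at 8.78 CPM. Alkali library 33 was highest for Plin2 at 121 CPM and lowest for Dnajb1 at 32.9 CPM, and alkali library 8 was highest for Ttc22 at 8.29 CPM. The causes were not tested.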

How the results depend on the processing

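No paired analysis was possible because the 2 oxalate groups share no replicate number, nor do the control groups. The counts of 271 higher and 359 lower genes became 464 and 700 with DESeq2, 15 and 14 in the 10 oxalate libraries alone, 12 and 30 with a limma-voom weight per group, 467 and 796 without libraries with Adipoq above 1 CPM, and 203 and 218 without a filter on low counts. Alternatives added after seeing the data gave 11 and 12 (10 oxalate libraries, limma-voom), 239 and 298 (10 oxalate libraries, DESeq2) and 38 and 22 (without untreated libraries 12 and 3, 59 of these 60 shared with the reported calls). Leaving out 1 library gave 93 to 442 higher and 92 to 718 lower genes, fewest without untreated library 12 or alkali library 30 and most without untreated library 32. Total-count scaling gave 182 higher and 297 lower genes, 384 of them shared with the reported calls. It also moved the median of all genes to -0.05. In control mice DESeq2 called 3 higher genes, and leaving out 1 library gave 0 to 1. The interaction had 8 higher and 7 lower genes with DESeq2, 1 higher without the Adipoq libraries, 1 higher without untreated libraries 12 and 3, and 0 to 2 higher and 0 to 1 lower on leaving out 1 library. The causes were not tested. Of the 124 called genes named, leaving out untreated library 12 lost 71 calls, alkali library 30 lost 67, and any control library at most 19, while 47 kept their call throughout. Signs changed in 6 uncalled genes near 0. Without the Adipoq libraries Kap was at 0.17 and Slc4a4 at 0.13. Trpv5 was at -0.0153 with limma-voom on the 10 libraries, -0.0262 with a weight per group and -0.0106 under total counts, and Calb1 was at -0.00386 without untreated libraries 12 and 3. Leaving out 1 library gave -0.322 to 0.0762 for Kap, -0.296 to 0.0602 for Slc4a4, -0.102 to 0.138 for Trpv5, -0.0116 to 0.180 for Calb1, -0.0715 to 0.228 for Aqp2 and -0.0323 to 0.204 for Scnn1a. Counting depth limits F2, Lpo and Ces1c, whose levels rest on few counts.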

Other observations

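Some genes of the phagocyte NADPH oxidase, the enzyme that makes superoxide in macrophages and neutrophils, were read after their values were seen. Cybb, the catalytic subunit, measured 90.5, 76.3, 32.4, 64 and 215 CPM in untreated and 12.2, 20.1, 55, 39.9 and 37.4 CPM in alkali libraries and changed by -1.54 ± 0.40 (edgeR adjusted p = 0.0354). Untreated library 40 was highest, and without it the change was -0.99 and not called (adjusted p = 0.115). Ncf4 changed by -1.18 ± 0.33 (adjusted p = 0.0494) and Hvcn1, the proton channel that balances the charge of the oxidase, by -1.35 ± 0.31 (adjusted p = 0.0224). For these 3 genes the groups overlapped, and the calls were lost without untreated library 12 or 40 or alkali library 30, for Cybb and Ncf4 also without others (adjusted p up to 0.135). Cybc1, a chaperone of the catalytic subunit, measured 51.8, 42.8, 33.2, 36 and 43.6 CPM and 23.3, 23.6, 30.2, 33.5 and 26.4 CPM and changed by -0.60 ± 0.12 (adjusted p = 0.00947), and it stayed called whichever library was left out (adjusted p at most 0.0357). Ncf1 (-1.10 ± 0.33), Cyba (-0.29 ± 0.17) and Rac2 (-0.80 ± 0.29) were not called. The exons of Cybc1, Hvcn1 and Ncf1 overlap other counted genes. Macrophage markers moved in the same libraries, as given above, and their part in these values was not tested.

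Actin and subunits of the Arp2/3 complex, which branches actin filaments, were also read after their values were seen. The 6 genes named were picked among those called lower, so their number says nothing of the whole complex. Actb measured 1118, 1000.1, 821, 903 and 1125 CPM in untreated and 574, 569, 752, 865 and 778 CPM in alkali libraries and changed by -0.49 ± 0.13 (adjusted p = 0.0386). Alkali library 5 lay above untreated library 32, so the groups overlapped. Actg1 changed by -0.58 ± 0.13, Arpc1b by -0.76 ± 0.16, Arpc4 by -0.41 ± 0.09, Arpc5 by -0.36 ± 0.08 and Actr3 by -0.33 ± 0.09. Arpc4 measured 101, 100.1, 95.2, 91.8 and 86.5 CPM and 77.6, 54.6, 70.8, 85.9 and 69.1 CPM, and Arpc5 122, 118, 121, 122 and 146 CPM and 104, 90.1, 97.9, 109 and 88.5 CPM, both without overlap. All 6 calls were lost on leaving out single libraries, among them untreated library 12 for 5 of them and alkali library 30 for 4 (adjusted p up to 0.123 for Actr3 without alkali library 30). Actb, which is often used as a reference gene, differed between these groups in the 20-library fit. The exons of Arpc1b and Arpc4 overlap other counted genes.

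Beside F2, secreted serine proteases and related proteins that the liver makes for the blood were read after their values were seen. Proz, the vitamin K-dependent protein Z, measured 3.76, 4.03, 7.77, 5.66 and 2.65 CPM in untreated and 14.3, 13.6, 7.99, 7.52 and 8.53 CPM in alkali libraries and rose by 1.12 ± 0.23 (adjusted p = 0.0128). Masp2, a protease of the lectin pathway of complement whose exons overlap Tardbp, measured 0.417, 0.832, 0.699, 0.728 and 0.389 CPM and 1.52, 1.67, 1.54, 1.25 and 1.59 CPM, with no overlap, and rose by 1.31 ± 0.21 (adjusted p = 0.00313, and 0.0426 with a weight per group). F7, coagulation factor VII, changed the other way, by -2.31 ± 0.56 (adjusted p = 0.0267), from 2.14, 1.63, 0.495, 1.09 and 4.78 CPM to 0.172, 0.227, 0.557, 0.353 and 0.73 CPM, a call lost without untreated library 12 or 40 or alkali library 2, 30 or 5 (adjusted p up to 0.0859, without library 40). All are low in these libraries, and they were not tested as a group.

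A pair of genes known from kidney development and repair were also separate between the groups. Aldh1a1, which makes retinoic acid, measured 39.3, 24.3, 15.3, 27 and 20.6 CPM in untreated and 8.89, 8.21, 13.1, 12.6 and 11.4 CPM in alkali libraries and changed by -1.22 ± 0.20 (adjusted p = 0.00313, and 0.0292 with a weight per group). Osr2, an odd-skipped transcription factor, measured 4.23, 4.13, 4.75, 4.13 and 3.5 CPM and 9.33, 11.6, 5.76, 6.11 and 10.4 CPM and rose by 1.06 ± 0.19 (adjusted p = 0.00563).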
